A study of Mus musculus with 6 samples.

Results

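Expression of 42 genes of DNA replication and nucleotide supply was compared between liver tumors and normal livers of C3H mice. The genes were chosen by name, for their roles in origin licensing, the replicative helicase, the DNA polymerases, nucleotide synthesis and chromatin assembly. They are 42 of the 34741 gene names on the array and have 56 of its 55681 probes that are not controls. Total RNA of 3 normal livers and 3 macroscopic liver tumors was hybridised, 1 sample to 1 array with 1 dye, to SurePrint G3 Mouse GE arrays, which carry probes of 60 bases.

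All samples came from male C3H/HeN mice of 74 to 75 weeks, F2 animals of the unexposed control arm of a gestational arsenic study, kept on the CA-1 diet and tap water. C3H mice develop liver tumors spontaneously, and the 3 tumors studied carried a Ha-ras mutation. The labels do not say whether a tumor and a normal liver came from the same animal, or from how many animals the 6 samples came, so p-values measure the spread between these samples. Slide 1 held the normal livers and slide 2 the tumors, and tissue and slide therefore cannot be told apart. In bulk tissue, fewer cells that express a gene and less RNA per cell cannot be told apart either.

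Before a cell copies its DNA, the origin recognition complex, Cdc6 and Cdt1 load rings of the MCM proteins onto replication origins, and geminin blocks a repeated loading. Cdc45 and the GINS complex then turn the MCM ring into an active helicase, primase and polymerase alpha start the new strands, and polymerases delta and epsilon extend them on the sliding clamp PCNA. Ribonucleotide reductase, thymidylate synthase and thymidine kinase supply the deoxynucleotides. Adult hepatocytes rarely divide, and E2F factors drive many of these genes when a cell enters the cycle.

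E2F sites are known from promoters of this kind, so the reference promoters of the members were searched for them, and those of 7 members that differ in their response are shown. Each sequence runs 5′ to 3′ along the gene's strand, from 250 bases before to 50 bases after the annotated start, as RefSeq gives it for GRCm38.p6. Capitals mark E2F words (TTTCCCGC, TTTCGCGC, TTTGCCGC or TTTGGCGC) and CCAAT boxes on either strand. Mcm6 (chr1:128359656-128359955, minus strand), Mcm5 (chr8:75109259-75109558, plus strand) and Pola1 (chrX:93632106-93632405, minus strand) rose in the tumors and hold E2F words, whereas Mcm7 (chr5:138171834-138172133, minus strand) holds such words and was not called. Rrm2 (chr12:24708004-24708303, plus strand) had the largest rise of the members, and Tk1 (chr11:117825965-117826264, minus strand) and Mcm10 (chr2:5012742-5013041, minus strand) fell. None of the last 3 holds one of the E2F words in this window.
Mcm6: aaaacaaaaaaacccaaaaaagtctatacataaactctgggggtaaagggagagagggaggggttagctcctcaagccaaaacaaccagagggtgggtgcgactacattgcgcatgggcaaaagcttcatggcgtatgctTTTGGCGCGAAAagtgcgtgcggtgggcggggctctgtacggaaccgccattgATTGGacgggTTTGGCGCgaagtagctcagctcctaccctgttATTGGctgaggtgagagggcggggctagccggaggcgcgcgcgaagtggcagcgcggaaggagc
Mcm5: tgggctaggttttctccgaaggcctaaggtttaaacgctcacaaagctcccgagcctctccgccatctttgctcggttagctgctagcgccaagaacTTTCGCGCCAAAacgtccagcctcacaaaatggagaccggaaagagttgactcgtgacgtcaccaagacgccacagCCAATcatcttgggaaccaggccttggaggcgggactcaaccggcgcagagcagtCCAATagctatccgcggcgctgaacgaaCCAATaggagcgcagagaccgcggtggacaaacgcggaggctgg
Pola1: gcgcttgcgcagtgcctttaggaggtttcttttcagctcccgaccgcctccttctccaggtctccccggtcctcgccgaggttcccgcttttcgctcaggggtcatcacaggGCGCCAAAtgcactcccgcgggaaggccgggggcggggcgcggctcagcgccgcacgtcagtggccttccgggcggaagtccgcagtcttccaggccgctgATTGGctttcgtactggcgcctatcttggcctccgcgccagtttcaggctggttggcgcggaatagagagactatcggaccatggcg
Mcm7: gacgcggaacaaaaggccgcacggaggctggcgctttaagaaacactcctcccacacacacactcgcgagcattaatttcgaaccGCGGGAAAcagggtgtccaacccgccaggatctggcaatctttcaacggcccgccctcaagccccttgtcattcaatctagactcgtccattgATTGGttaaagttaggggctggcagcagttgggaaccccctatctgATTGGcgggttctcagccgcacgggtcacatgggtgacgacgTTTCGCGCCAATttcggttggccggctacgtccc
Rrm2: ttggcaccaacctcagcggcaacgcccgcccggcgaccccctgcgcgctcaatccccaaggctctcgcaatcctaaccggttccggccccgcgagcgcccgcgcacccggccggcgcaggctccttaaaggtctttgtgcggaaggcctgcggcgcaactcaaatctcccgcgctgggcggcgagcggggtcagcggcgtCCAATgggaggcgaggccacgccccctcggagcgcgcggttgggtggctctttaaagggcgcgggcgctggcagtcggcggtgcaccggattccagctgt
Tk1: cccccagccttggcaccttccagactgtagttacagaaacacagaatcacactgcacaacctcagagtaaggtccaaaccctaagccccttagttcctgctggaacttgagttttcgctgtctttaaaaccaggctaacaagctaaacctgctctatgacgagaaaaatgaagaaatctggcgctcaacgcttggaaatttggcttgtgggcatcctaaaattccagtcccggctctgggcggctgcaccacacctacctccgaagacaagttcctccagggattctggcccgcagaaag
Mcm10: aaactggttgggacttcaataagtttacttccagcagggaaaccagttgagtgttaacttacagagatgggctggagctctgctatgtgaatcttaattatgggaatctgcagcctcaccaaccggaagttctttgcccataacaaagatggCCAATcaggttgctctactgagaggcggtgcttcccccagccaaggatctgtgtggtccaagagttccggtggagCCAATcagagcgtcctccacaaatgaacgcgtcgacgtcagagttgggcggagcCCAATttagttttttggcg

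In the Mcm5 promoter, 2 overlapping words on opposite strands begin 153 and 149 bases upstream of the start. In the Mcm6 promoter, 2 overlapping words begin 110 and 106 bases upstream and another begins 47 bases upstream. The single word of Pola1 begins 138 bases upstream, and the second word of Mcm7 overlaps a CCAAT box just after the start. A match of letters is a description and not a binding site, and no match says only that these letters are not in the window.

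Expression values are the background-subtracted signal of a probe divided by the 75th percentile of its array, so they are relative, and tests compare values only within a probe. A gene was tested if, in either group, all 3 arrays had a probe of it well above background, and was called at a Benjamini-Hochberg adjusted p of 0.05 by limma, fitted over all probes that passed this filter. Of the 42 members 37 were tested, of which 15 rose in the tumors, where 13.1% of all 18566 tested genes rose. The 2 that fell, Tk1 and Mcm10, stand beside a share of 21.0% of all tested genes that fell, and 20 members were not called. Of these calls, 5 rises and 2 falls were of 2-fold or more, beside 7.80% and 6.84% of all tested genes. When the expression and fold thresholds of the study's methods were combined with an unadjusted p under 0.05, 3 members rose and 2 fell, beside 4.66% and 4.47%. The median log2 fold change of the tested members was 0.45, against -0.13 for all tested genes.

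The tumors lay above all normal livers in 23 tested members and below them in 7, and the groups overlapped in the other 7. Over all tested genes, these shares were 18.3% above and 33.5% below. Mcm2, Gins2, Pole2 and Chaf1a passed the filter through the tumors alone, being well above background on 2, 1, 1 and 2 of the 3 normal arrays. All 4 are among the 23 members with the tumors above, a count that was not repeated without them. The differences of these genes rest in part on dim normal signals, so the counts of calls were also taken over genes well above background on all 6 arrays. There, 33 members remained, 13 rose and 2 fell, beside 11.1% and 21.2% of such genes, and their median was 0.40.

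**Figure D1:**
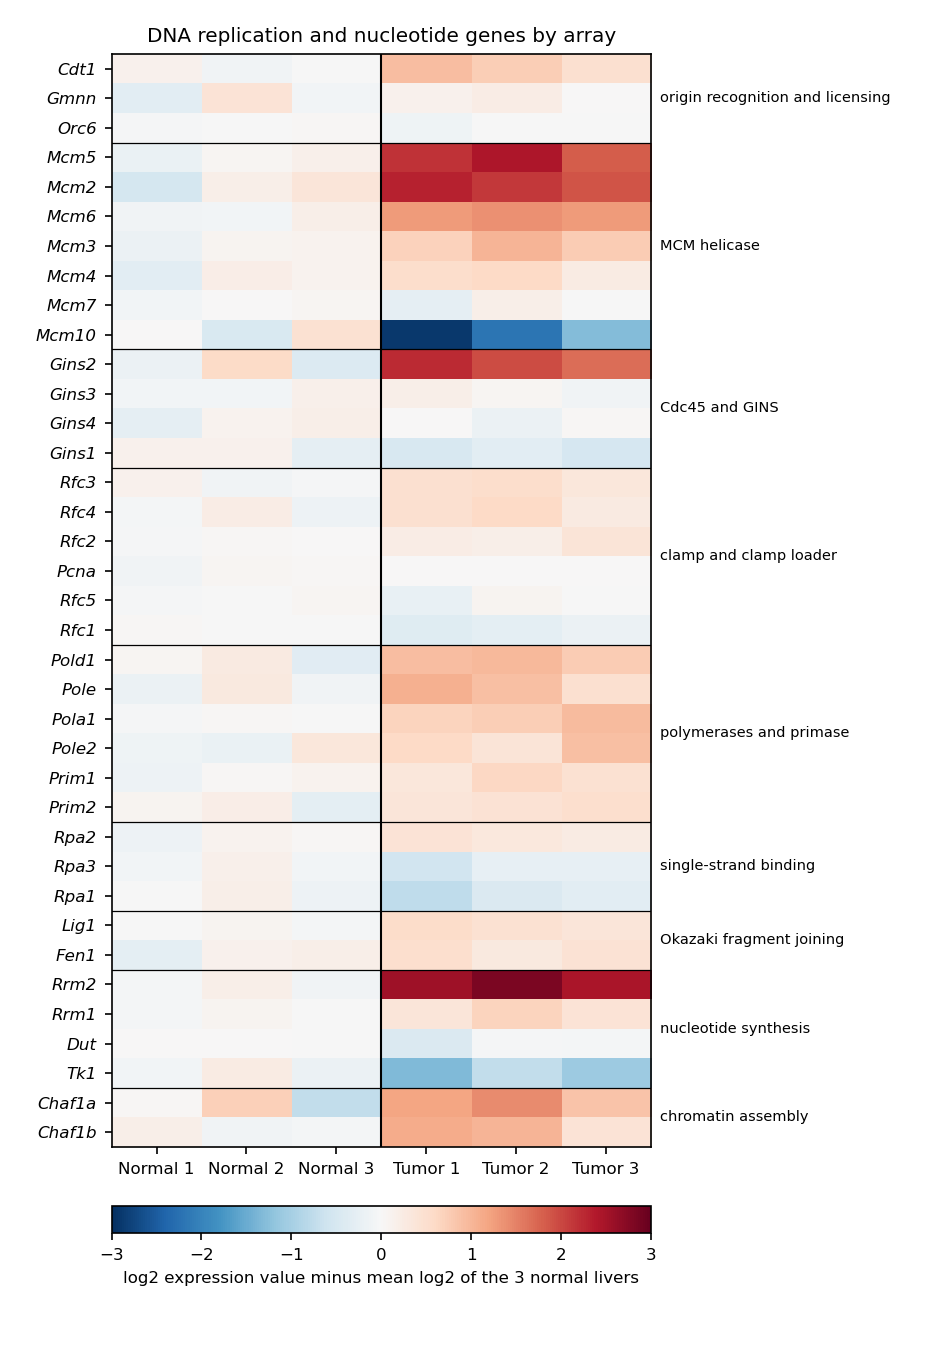
Log2 expression value of the 37 tested members (rows, ordered by role) on each of the 6 arrays (columns), minus the mean log2 value of the 3 normal livers. Red cells are higher and blue cells lower, and Rrm2, Mcm5, Mcm2 and Gins2 are the deepest red rows over all 3 tumors, while Mcm10 and Tk1 are blue.

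Between 44.7% and 48.9% of spots were well above background, no spot was saturated, and arrays correlated at 0.989 to 0.992 within normal livers, 0.980 to 0.990 within tumors and 0.914 to 0.950 between them, across probes and with no test. Tumor 1 stood apart, with 0.914 to 0.916 to the normal livers and 0.980 and 0.982 to the other tumors, which correlated at 0.990 with each other. Without tumor 1, 11 members rose and 2 fell, and the members' median was 0.43. Local background had a median of 42 to 45 for the normal livers' slide and of 22 to 23 for that of the tumors, and its part in the values of dim probes was not tested. The 8 hepatocyte markers summed to 9372 to 10377 in normal livers and 9660 to 10023 in tumors, and 1 of them was called, higher. Of the other cell type lists, 5 of 7 macrophage and Kupffer cell markers fell (sums of 73.2 to 117 in normal livers and 37.1 to 58.6 in tumors), as did 3 of 6 stellate cell and fibroblast markers while 1 rose (85.3 to 102 and 27.3 to 47.2). Beside these marker counts, 21.0% of all tested genes fell and 13.1% rose. None of 4 tested lymphocyte markers was called (7.51 to 9.24 and 7.47 to 9.69) or of 5 tested neutrophil markers (149 to 171 and 133 to 184), with Mpo not well above background on any array. The endothelial list had 1 of 6 lower (53.5 to 65.3 and 47.2 to 50.3) and the cholangiocyte list 0 of 4 tested called (2.33 to 2.93 and 1.89 to 2.19). These sums add different probes and are dominated by bright ones, such as Dcn, 75.8 to 96.4 in the normal livers, in the stellate list and Csf3r, 141 to 159, in the neutrophil list. Of the erythroid markers tested, Alas2 fell from 57.2, 64.3 and 45.5 to 4.91, 15.2 and 18.4 (log2 -2.31, limma adjusted p = 0.0147) and Klf1 from 1.15, 1.26 and 1.31 to 0.213, 0.511 and 0.430 (log2 -1.78, limma adjusted p = 0.00858), while Hba-a1 was not called (log2 -0.08). The part of these cell types in the results was not tested.

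Of the 3 origin recognition and licensing genes tested, 1 rose, beside 13.1% of all tested genes, and 2 were not called. Cdt1, which brings the MCM ring to the origin, had values of 2.11, 1.78 and 1.90 in the normal livers and 3.68, 3.23 and 2.69 in the tumors, and every tumor was above every normal liver. It rose 1.65-fold (log2 0.72 ± 0.15, SE, limma adjusted p = 0.0141), and without normal liver 2 or with no filter on dim probes the call was lost (limma adjusted p of up to 0.0582). Gmnn, which encodes geminin, the inhibitor of Cdt1, had 0.416, 0.693 and 0.490 in normal livers and 0.566, 0.611 and 0.522 in tumors, with the tumors inside the range of the normal livers (95% interval of the log2 change -0.36 to 0.60). Orc6, a subunit of the origin recognition complex, had 1.80, 1.84 and 1.91 against 1.69, 1.83 and 1.84, groups that overlap (interval -0.30 to 0.19). Orc1, the ATPase subunit of the same complex, and Cdc6, the loading ATPase, were well above background on 0 arrays and were not tested. Their signals were 0.0366, 0.0289 and 0.0269 against 0.0258, 0.0225 and 0.0236 for Orc1 and 0.0837, 0.0267 and 0.0401 against 0.0902, 0.0504 and 0.0626 for the brighter probe of Cdc6.

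Of the 7 MCM genes, all tested, 4 rose, 1 fell and 2 were not called, beside 13.1% of all tested genes that rose and 21.0% that fell. Of 6 well above background on all 6 arrays, 3 rose and 1 fell, beside 11.1% and 21.2% of such genes. Mcm2 to Mcm7 encode the 6 subunits of the helicase ring. Mcm5 had 0.225, 0.272 and 0.289 in the normal livers (0.262 ± 0.0328, mean and SD, n = 3) and 1.16, 1.40 and 0.913 in the tumors (1.16 ± 0.242). It rose 4.38-fold (log2 2.13 ± 0.19, limma adjusted p = 0.000817), and the lowest tumor was well clear of the highest normal liver. Mcm2 had 0.159, 0.259 and 0.295 against 1.13, 1.003 and 0.844 and rose 4.29-fold (log2 2.10 ± 0.25, limma adjusted p = 0.00244), with 2 of its 3 normal values well above background. Both are dim probes in normal liver, and with a normexp correction and an offset of 50 their log2 changes were 1.14 and 1.08.

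Mcm6 rose too, from 3.29, 3.35 and 4.03 to 8.55, 9.17 and 8.53, a 2.47-fold change in which the 3 tumors lay close together (log2 1.31 ± 0.12, limma adjusted p = 0.00104). Mcm3 rose 1.77-fold (log2 0.83, limma adjusted p = 0.00780), and its second probe gave a log2 change of 0.78. Mcm4 and Mcm7, the remaining ring subunits, were not called. Mcm4 had 1.24, 1.80 and 1.69 against 2.26, 2.37 and 1.86, with all tumors above the normal livers (log2 0.47, limma adjusted p = 0.0931). Mcm7 had 5.59, 5.88 and 6.16 against 4.87, 6.68 and 5.81, and the tumors spanned the normal range (interval -0.38 to 0.31). The Mcm7 gene overlaps Ap4m1 and the genes of Mir25, Mir93 and Mir106b.

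Mcm10, a separate factor that binds the ring during origin firing, went the other way. Its single probe had 64.0, 46.1 and 87.5 in the normal livers (65.9 ± 20.7, n = 3) and 8.63, 14.0 and 25.7 in the tumors (16.1 ± 8.74). All tumors were lower, tumor 1 most of all, and the change was 4.37-fold down (log2 -2.13 ± 0.42, limma adjusted p = 0.0120). The ratio between the highest and lowest tumor was 2.98 for Mcm10, beside 1.53 for Mcm5. The Mcm10 probe was the brightest of the members in normal liver, and there was no second probe to compare. Whether it detects other transcripts was not tested.

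**Figure D2:**
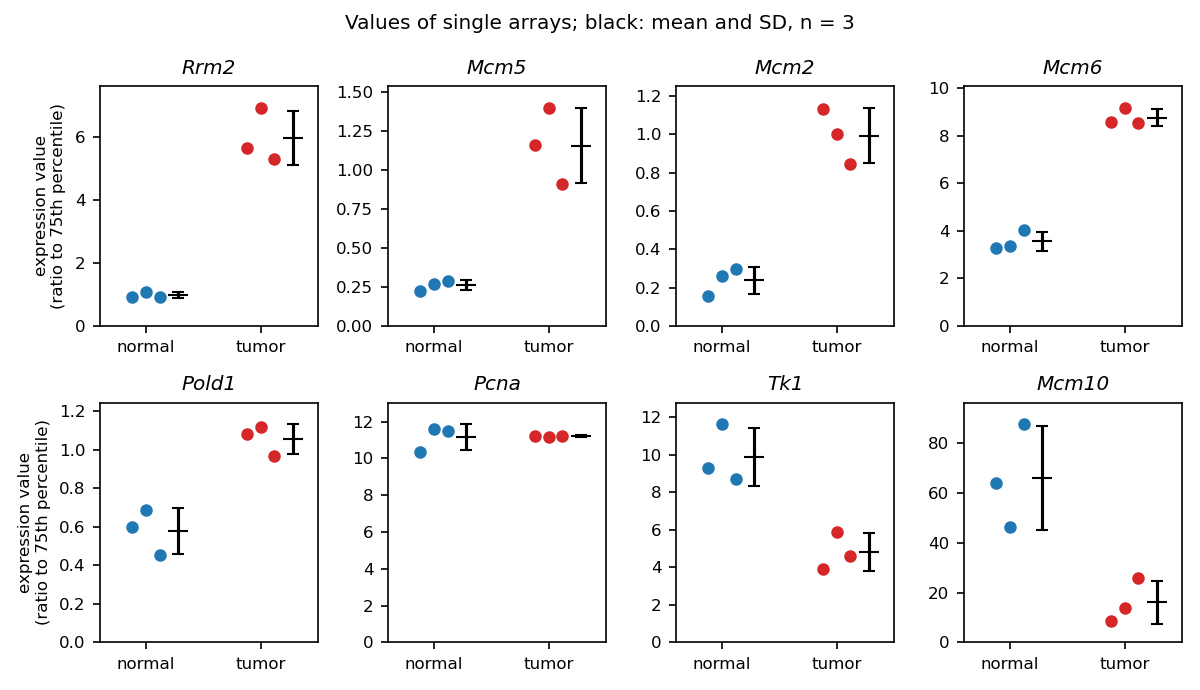
Expression value (ratio to the 75th percentile of the array) of 8 members on each array, with the mean and SD of the 3 arrays of a group in black. Rrm2, Mcm5, Mcm2, Mcm6 and Pold1 are higher in all tumors, Pcna overlaps, and Tk1 and Mcm10 are lower in all tumors.

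Of the factors that activate the helicase, 1 of 4 tested rose, beside 13.1% of all tested genes. Gins2 had 0.0843, 0.141 and 0.0718 in normal livers and 0.448, 0.369 and 0.305 in tumors, a rise of 3.90-fold (log2 1.96 ± 0.28, limma adjusted p = 0.00410). Only 1 of its 3 normal values was well above background, and the normexp correction gave a log2 change of 0.57, still called. None of the other GINS subunits was called. Gins1 had 2.13, 2.12 and 1.63 against 1.40, 1.57 and 1.37, all tumors lower and not called (log2 -0.43, limma adjusted p = 0.0643). Gins3 had 11.5, 11.6 and 13.7 against 13.9, 12.7 and 11.3 (interval -0.27 to 0.36) and Gins4 had 2.04, 2.63 and 2.78 against 2.49, 2.17 and 2.51 (interval -0.41 to 0.32), and for both the groups overlapped. Cdc45, the helicase cofactor, was well above background on 1 normal and 2 tumor arrays and was not tested, with signals of 0.165, 0.214 and 0.131 against 0.0966, 0.159 and 0.189.

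Pcna, the sliding clamp and a widely used proliferation marker, was not called. Its values were 10.4, 11.6 and 11.5 in the normal livers and 11.2, 11.2 and 11.2 in the tumors, and the tumors lay inside the normal range. The log2 change was 0.01 with a 95% interval of -0.24 to 0.26, so a change of 2-fold lies outside the interval. Among the subunits of replication factor C, which loads the clamp, Rfc3 rose 1.37-fold, from 0.359, 0.302 and 0.318 to 0.456, 0.470 and 0.410 (log2 0.45 ± 0.12, limma adjusted p = 0.0308). This call was lost under 9 of the alternatives, among them leaving out normal liver 2 or 3 or tumor 1 or 2, and with the normexp correction the log2 change was 0.14 (adjusted p = 0.372).

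The other 4 loader subunits were not called. Rfc4 had 2.15, 2.61 and 2.004 against 3.13, 3.36 and 2.70 (log2 0.45, limma adjusted p = 0.0608) and Rfc2 had 4.26, 4.46 and 4.41 against 5.12, 4.91 and 5.69 (log2 0.26, adjusted p = 0.115), each with all tumors above the normal livers. Rfc1, the large subunit, had 5.57, 5.40 and 5.37 against 4.25, 4.43 and 4.86, all tumors below (log2 -0.27, limma adjusted p = 0.0919). Rfc5 had 5.85, 5.95 and 6.26 against 5.14, 6.36 and 6.02, with overlap. The second probes gave log2 changes of 0.40 for Rfc4 and -0.12 for Rfc5, not called. No member of the loader changed by 2-fold or more in the fit.

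All 6 tested polymerase and primase members had every tumor above every normal liver, beside 18.3% of all tested genes. Pole2 is among them and passed the filter through the tumors alone, and on a second probe of Prim2 the groups overlapped. Of the 6 members 4 rose, beside 13.1% of all tested genes. Of 5 well above background on all 6 arrays 4 rose, beside 11.1% of such genes. Pold1, the catalytic subunit of polymerase delta, had 0.598, 0.688 and 0.453 against 1.08, 1.12 and 0.967 and rose 1.84-fold (log2 0.88 ± 0.18, limma adjusted p = 0.0119). Pole, that of polymerase epsilon, had 0.599, 0.825 and 0.631 against 1.42, 1.26 and 0.940 and rose 1.76-fold (log2 0.81 ± 0.20, limma adjusted p = 0.0245). Pola1, that of polymerase alpha, rose 1.72-fold (log2 0.78, limma adjusted p = 0.00491), and Prim1, the catalytic primase subunit, rose 1.38-fold (log2 0.47, limma adjusted p = 0.0327). The calls of Pole and Prim1 were each lost on leaving out normal liver 1 or 3 or tumor 2, and under some other alternatives, with adjusted p of up to 0.0807 for Pole and 0.125 for Prim1. Of the 3 probes of Pole 1 was tested. Another, well above background on 2 normal and 2 tumor arrays, had 0.142, 0.158 and 0.165 against 0.178, 0.146 and 0.0252. Its groups overlapped and its log2 change was -0.83. The last probe was well above background on 0 arrays.

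Neither of the accessory members tested, Prim2 and Pole2, was called. Prim2, the large primase subunit, had 0.778, 0.844 and 0.598 against 0.945, 0.992 and 1.04 (log2 0.44, limma adjusted p = 0.0706), and its second probe gave a log2 change of -0.00. Pole2, the second subunit of polymerase epsilon, had 0.0964, 0.0925 and 0.134 against 0.159, 0.140 and 0.198 (log2 0.63, limma adjusted p = 0.0521), with 1 of 3 normal values well above background. Pole2 was called higher under 6 of 15 alternatives, with an adjusted p down to 0.0231. Pola2, the second subunit of polymerase alpha, was above background on 0 arrays, and its signals of 0.0751, 0.0984 and 0.0669 against 0.0877, 0.0652 and 0.0853 were not tested.

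Replication protein A coats single-stranded DNA, and none of its 3 subunits was called. Rpa1 had 16.8, 19.2 and 15.3 in normal livers and 10.01, 12.7 and 13.6 in tumors, all tumors lower (log2 -0.51 ± 0.16, limma adjusted p = 0.0521), and on its second probe the groups overlapped (log2 -0.29, adjusted p = 0.211). Rpa3 had 4.38, 5.17 and 4.35 against 3.11, 3.88 and 3.90, again with all tumors lower (log2 -0.35, limma adjusted p = 0.1001). Rpa2 had 0.425, 0.509 and 0.481 against 0.628, 0.586 and 0.557, with all tumors higher (log2 0.33, limma adjusted p = 0.0779). With scaling by spike-in controls the log2 changes were -0.30 for Rpa1, -0.15 for Rpa3 and 0.54 for Rpa2.

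Of the enzymes that join Okazaki fragments, Lig1, the replicative DNA ligase, had 2.69, 2.85 and 2.58 against 3.98, 3.71 and 3.47 and rose 1.37-fold (log2 0.46 ± 0.11, limma adjusted p = 0.0218). Fen1, the flap endonuclease, had 2.20, 2.96 and 3.07 against 3.85, 3.31 and 3.64, all tumors higher and not called (log2 0.40, limma adjusted p = 0.0973). Without any 1 normal liver, tumor 1 or tumor 2, or with spike-in scaling, the call of Lig1 was lost (adjusted p of up to 0.103). Both genes overlap a neighbour, Zswim9 for Lig1 and Tmem258 for Fen1.

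**Figure D3:**
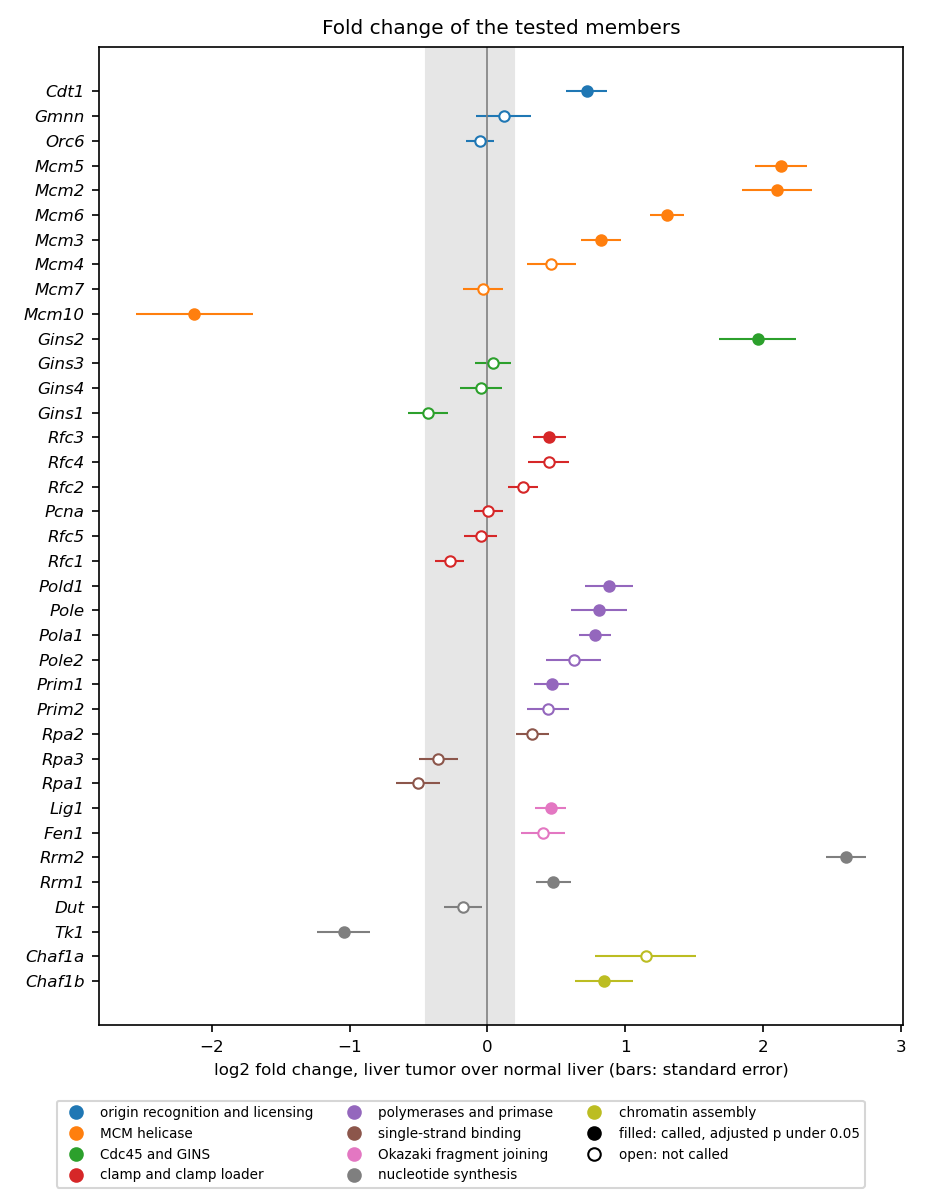
Log2 fold change, liver tumor over normal liver, of the 37 tested members with the standard error of the limma fit, coloured by role. Filled points passed an adjusted p of 0.05, open points did not, and the grey band holds the middle 50% of all tested genes; 15 filled points lie to the right of 0 and 2 to the left.

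The nucleotide genes held the largest rise of any member and 1 of the 2 falls. Rrm2, the small subunit of ribonucleotide reductase that limits its activity in S phase, had 0.932, 1.09 and 0.908 in the normal livers (0.977 ± 0.0998, n = 3) and 5.66, 6.93 and 5.30 in the tumors (5.96 ± 0.855). It rose 6.08-fold (log2 2.60 ± 0.15, limma adjusted p = 0.000173), with the tumors far above all normal livers. Rrm1, the large subunit, rose 1.39-fold, from 1.68, 1.84 and 1.72 to 2.24, 2.78 and 2.32 (log2 0.48 ± 0.12, limma adjusted p = 0.0285). The call of Rrm1 was lost without any 1 normal liver, without tumor 2 or with spike-in scaling (adjusted p of up to 0.115), and the difference in fold between the 2 subunits was not tested.

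Tk1, the thymidine kinase of the salvage pathway, is usually highest in S phase, and here it was lower in all 3 tumors. It had 9.30, 11.6 and 8.70 in normal livers (9.88 ± 1.54, n = 3) and 3.93, 5.91 and 4.63 in tumors (4.82 ± 1.001), a fall of 2.06-fold (log2 -1.04 ± 0.19, limma adjusted p = 0.00912). A second Tk1 probe had 1.40, 1.87 and 1.44 against 0.615, 0.930 and 0.692 and gave a log2 change of -1.08, while the third was too dim to test. Tk1 overlaps Afmid, a gene of tryptophan breakdown. Dut, the enzyme that removes dUTP, had 0.992, 0.997 and 0.974 against 0.731, 0.961 and 0.949 and was not called (interval -0.51 to 0.15). Tyms, thymidylate synthase, was well above background on 2 tumor arrays and 0 normal arrays and was not tested, with signals of 0.110, 0.0998 and 0.122 against 0.179, 0.0789 and 0.147.

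Chromatin assembly factor 1 places histones on new DNA. Its subunit Chaf1b had 1.70, 1.39 and 1.44 against 3.25, 3.07 and 1.998 and rose 1.80-fold (log2 0.85 ± 0.21, limma adjusted p = 0.0242), and a second probe gave a log2 change of 0.90. This call was lost without normal liver 2 or 3 or tumor 1 or 2 (adjusted p of up to 0.0792). Chaf1a had 0.222, 0.359 and 0.130 against 0.497, 0.578 and 0.393, all tumors higher, and missed the threshold (log2 1.15 ± 0.37, limma adjusted p = 0.0532). It was called higher under 5 of 15 alternatives, with an adjusted p down to 0.0126.

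The members that rose varied among the tumors by about as much as among the normal livers. Of the 15 members that rose, 8 were highest in tumor 2, 6 in tumor 1 and 1 in tumor 3, and 11 were lowest in tumor 3 and 4 in tumor 1. The highest tumor exceeded the lowest by a median ratio of 1.27 and by at most 1.62. The same ratio among normal livers had a median of 1.21 and reached 1.96 for Gins2, whose normal signals were dim. Calls favor genes of small spread within groups, so these ratios rest in part on that choice. Tk1 and Mcm10, the members that fell, were both lowest in tumor 1. These orders are a description over single samples and have no test.

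The wider replication machinery was taken as 39 genes listed outside the members. Of 31 tested, 9 rose and 6 fell, beside 13.1% and 21.0% of all tested genes. Their median log2 change was 0.10, and 7 of the 31 passed the filter through the tumors alone. Of 24 well above background on all 6 arrays, 4 rose and 6 fell, beside 11.1% and 21.2% of such genes. Top2a, the topoisomerase that untangles sister chromatids, was not well above background in normal livers (0.0371, 0.02996 and 0.0278, mean 0.0316 ± 0.00486) and reached 0.526, 0.582 and 0.376 in the tumors (mean 0.495 ± 0.107), so it was at least 3.74-fold higher (limma adjusted p = 0.000127). This bound sets the bright group against the lowest signal that was well above background on each dim array, or the probe's own signal where that was higher. Pold4, the smallest subunit of polymerase delta, rose from 2.55, 2.61 and 2.54 to 34.2, 25.4 and 18.7 (log2 3.30, limma adjusted p = 0.000298). Uhrf1, which guides maintenance of DNA methylation, rose by 3.28 on the log2 scale and Chtf18, part of an alternative clamp loader, by 2.28, with 2 and 1 of the 3 normal values well above background. Tipin, a fork protection factor, fell by 1.87-fold (log2 -0.91, limma adjusted p = 0.0154) and Pole4, a small epsilon subunit, by 1.61-fold (log2 -0.69, limma adjusted p = 0.00628).

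Of the 32 other genes of nucleotide supply 30 were tested, of which 2 rose and 6 fell, beside 13.1% and 21.0% of all tested genes, and the median log2 change was -0.17. Ctps2, a CTP synthetase, had 3.02, 3.08 and 3.36 against 21.0, 13.1 and 14.1 and rose 4.99-fold (log2 2.32, limma adjusted p = 0.000685). Impdh1, which feeds guanine nucleotide synthesis, rose 2.44-fold (log2 1.29, limma adjusted p = 0.00111). Shmt2, a mitochondrial folate enzyme, had 31.3, 37.8 and 32.9 against 13.3, 17.3 and 20.03 and fell (log2 -1.03, limma adjusted p = 0.00747), and Paics, of purine synthesis, fell too (log2 -1.02, limma adjusted p = 0.0182). None of the 10 tested genes of deoxynucleotide synthesis and salvage was called, while 3 of 5 folate genes fell.

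The genes of the E2F factors and their partners were all tested, 13 in number. All 3 activating members rose, with log2 changes of 1.31 for E2f2, 1.18 for E2f3 and 0.91 for E2f1 (limma adjusted p of 0.00205, 0.00554 and 0.0274). Of 5 repressing members 2 fell, E2f8 the most, from 1.52, 1.06 and 1.99 to 0.139, 0.375 and 0.468 (log2 -2.35 ± 0.48, limma adjusted p = 0.0131). Among the pocket proteins, which hold E2F factors in check, Rbl1 rose (log2 1.65, limma adjusted p = 0.00102, with 1 normal value well above background) and Rbl2 fell (log2 -0.97, limma adjusted p = 0.00837). Over these 3 lists 15 genes rose and 15 fell, beside 13.1% and 21.0% of all tested genes. With scaling by spike-in controls the split was 17 and 3. Under that scaling 13.9% of all tested genes rose and 7.65% fell, the median over all tested probes moved from -0.13 to 0.08, and the members split into 13 that rose and 2 that fell.

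Mitosis genes were compared because they mark dividing cells later in the cycle. Of 20, 15 were tested, and 13 rose and 0 fell, beside 13.1% and 21.0% of all tested genes. The median log2 change was 3.52, with 8 of the 15 passing the filter through the tumors alone. Over those well above background on all 6 arrays, 6 of 7 rose, beside 11.1% of such genes. Prc1 was at least 16.6-fold higher (0.0620 ± 0.00203 in normal livers, none of them well above background, and 2.22 ± 0.652 in tumors) and Ccnb1, cyclin B1, at least 13.0-fold higher (0.0585 ± 0.0167 and 1.75 ± 0.518), with limma adjusted p of 8.50e-05 and 0.000222. Plk1, a mitotic kinase, had 0.0953, 0.165 and 0.0679 against 3.56, 3.01 and 1.92 (limma adjusted p = 0.000538), with 1 normal value well above background. All 13 that rose were lowest in tumor 3. The difference between the mitosis list and the replication members was not tested.

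**Figure D4:**
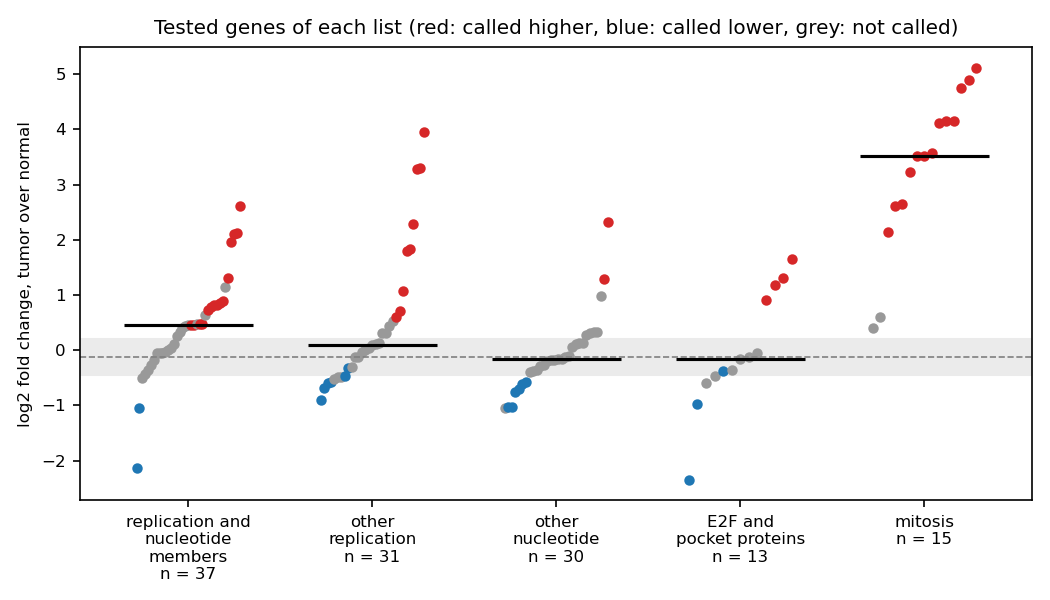
Log2 fold change, liver tumor over normal liver, of the tested genes in 5 lists, each point 1 gene and each black bar the median of a list. The grey band holds the middle 50% of all tested genes and the dashed line their median of -0.13; the members center on 0.45 and the mitosis genes on 3.52.

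The searched promoters were known for 34 members, and 13 of these (38.2%) held an E2F word, against 2.60% of 27025 genes with a promoter in the same table. Among members that rose, 8 of 13 with a promoter held one, against 3 of 14 that were not called, 0 of 2 that fell and 2 of 5 that were not tested. The members that rose and held a word were Mcm3, Mcm5, Mcm6, Cdt1, Pola1, Pold1, Lig1 and Rfc3. CCAAT boxes were in 21 of 34 (61.8%), against 41.1% of all genes, and the CHR element TTTGAA was in 4 of 34 (11.8%), against 20.2%. These shares describe the list and were not tested. Promoters of Gmnn, Mcm4, Gins1, Gins2, Gins4, Rfc2, Prim2 and Pole were not analysed here.

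**Figure D5:**
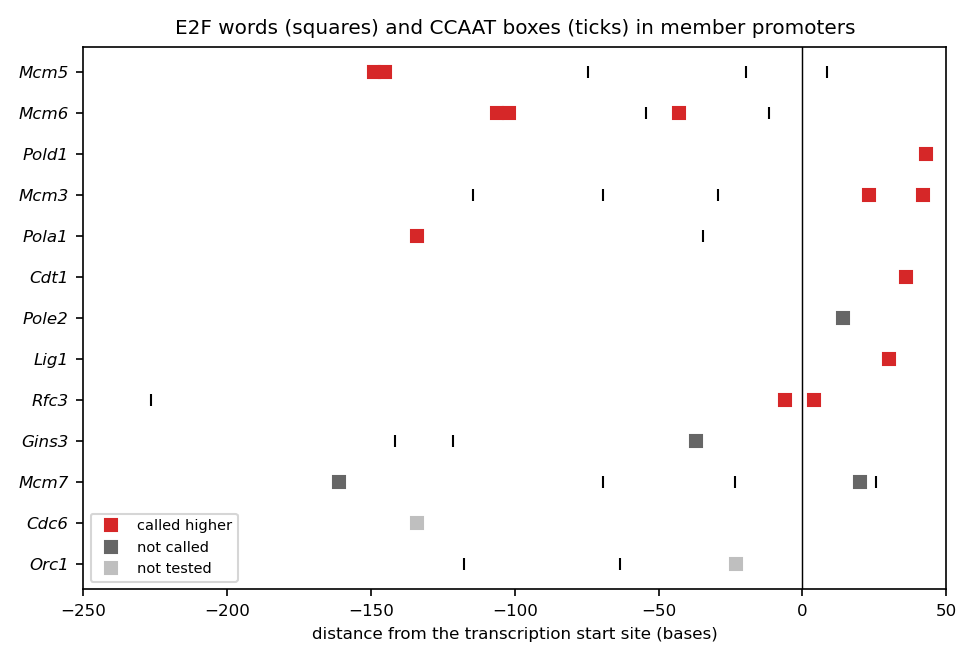
Positions of E2F words (squares, coloured by whether the member rose) and CCAAT boxes (black ticks) relative to the annotated transcription start, in bases, for the 13 members that hold an E2F word. The words lie between 165 bases upstream and 50 bases downstream of the start, and those of Mcm5 and Mcm6 come in overlapping pairs.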

How the data were processed

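Total RNA of 3 normal livers and 3 liver tumors was labelled with Cy3 and hybridised to SurePrint G3 Mouse GE arrays. The authors deposited Agilent Feature Extraction output (version 10.7.3.1 in the file headers, 12.0.3.1 in the submitters' processing notes), whose processed signal is a background-subtracted, spatially detrended intensity. They also deposited a value table, which holds the same intensity as a ratio to each array's 75th percentile, on a linear scale with no centring (column medians 0.08 to 0.11). The deposited ratio differed from the ratio computed here by at most 0.369.

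Here, log2 processed signals were scaled to each array's 75th percentile over all spots. Control spots and flagged outliers were left out, spots of a probe were averaged, and 24898 probes were kept. Genes were named through RefSeq (GRCm38.p6) by accession (27235 probes), symbol (3581) or synonym (565), and 24300 probes kept the array's name. Of a gene's probes that passed the filter, the one with the highest mean stood for it. In the alternative with no filter, the highest mean among all its probes was used. Two-sided limma tests (limma 3.58.1, R 4.3.3) were adjusted over all kept probes by Benjamini-Hochberg. An exact permutation test of 3 against 3 arrays cannot go below p = 0.1. The precision is limited by 3 arrays per group. The code was tested on simulated data.

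The members and gene lists were chosen with earlier results of these data known. All 42 members were named, with array values for the members of largest change in each role and for those lower, not called or not tested. Called genes of largest change were named from the other lists. Alternatives were another background correction, scaling, filter, probe rule and test, a replicate block, and leaving out each array. The result of 1 cell type marker is not reported here.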

Additional observations from a re-analysis of the deposited data

How the results depend on the processing

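With no filter on dim probes, 8 members rose and 18 genes of the other 3 lists were called, against 15 and 30. With the methods' thresholds on fold (2-fold or more between group means) and expression (a mean above 1.0 in either group), combined with an unadjusted p under 0.05, 3 members rose and 9 other genes were called. By the methods' t-test, 5 members were lower when unpaired and unadjusted, and 0 members were higher, 0 lower and 0 other genes called when paired and adjusted (16, 2 and 29 unadjusted). Spike-in scaling moved the members' median to 0.65. Leaving out 1 array gave 9 to 14 members higher, 2 to 3 lower, 19 to 27 other genes called and a median of 0.40 to 0.49. The lowest counts were without tumor 2 (9 members) and without normal liver 2 (19 genes).

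Of the 17 called members, 10 were called under every limma alternative run, and Cdt1, Rfc3, Prim1, Pole, Lig1, Rrm1 and Chaf1b lost their call in at least 1. Leaving out 1 array ended the call of Cdt1 (without normal liver 2), of Prim1, Lig1 and Rrm1 (without any 1 normal liver and without tumor 2), and of Rfc3, Pole and Chaf1b (without normal liver 3, tumor 1 or tumor 2), with further losses for some of them. Spike-in scaling ended the call of Rfc3, Prim1, Lig1 and Rrm1. Of the 20 members not called, 7 gained a call in at least 1 alternative, Pole2 in 6, Chaf1a in 5, Rfc4 in 4, Rfc2 and Rpa1 in 2 each, and Gins1 and Fen1 in 1 each. No called member changed sign, and 8 of the 20 not called did, all near 0. With spike-in scaling the log2 change was 0.16 for Orc6, 0.18 for Mcm7, 0.16 for Gins4, 0.16 for Rfc5 and 0.031 for Dut. With normexp it was -0.0046 for Gmnn, 0.027 for Mcm7 and 0.029 for Rfc5, and with quantile normalization 0.067 for Mcm7, 0.024 for Gins4 and 0.046 for Rfc5. Leaving out 1 array gave -0.044 to 0.32 for Gmnn, -0.14 to 0.086 for Mcm7, -0.029 to 0.12 for Gins3, -0.18 to 0.041 for Gins4, -0.045 to 0.037 for Pcna and -0.11 to 0.040 for Rfc5. The replicate block gave 17 members higher and 2 lower and 28 other genes called. The numbers share no stated animal, and the deviations of same-numbered samples from their group means correlated at 0.07, 0.13 and 0.05. Dim signals limit what Orc1, Cdc6, Cdc45, Pola2 and Tyms can show, and the normexp offset shrinks changes of dim probes by construction.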
